A study of Mus musculus with 30 samples.

Results

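MHC class I and class II antigen presentation was described in the extensor digitorum longus (EDL) muscle through 10 genes: H2-K1, H2-D1, H2-T23, H2-AA, H2-AB1, H2-EB1, CD74, B2M, TAP1 and NLRC5. They were chosen by name with earlier results of these data known, and all 10 were found among the 21073 genes of the deposited expression table. The EDL muscles came from female wild-type SJL/J mice and were examined by RNA-Seq of poly(A) RNA in 30 mice, each sampled once. Unimmunized mice (Ctrl) received neither antigen nor adjuvant. OVA-immunized mice (OVA) were given ovalbumin emulsified in complete Freund's adjuvant (CFA). EAE-induced mice (EAE) were given the [Ser140]-PLP139-151 peptide of a myelin protein in CFA, which causes experimental autoimmune encephalomyelitis, a mouse model of multiple sclerosis. Each of these groups had 5 mice on day 14 and 5 other mice on day 40 after EAE induction. EAE-induced and OVA-immunized mice therefore shared the adjuvant and differed in the antigen, whereas unimmunized mice lacked both. The mice's ages and the disease scores of the sequenced animals were not given in the sources used here. Every value comes from a whole muscle, with its blood vessels and resident immune cells. The 10 muscle fiber markers, such as ACTA1 and CKM, summed to between 69300 and 123000 RPKM in every mouse.

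MHC class I molecules carry peptides from inside the cell to its surface for CD8 T cells. They consist of a heavy chain, here H2-K1 or H2-D1, and the shared light chain B2M, and are filled with peptides that TAP1 and its partner TAP2 pump into the endoplasmic reticulum. H2-T23 encodes Qa-1, a non-classical heavy chain that presents leader peptides of other class I molecules to natural killer cells. NLRC5 is a transcriptional activator of class I genes. MHC class II molecules present peptides taken up from outside the cell to CD4 T cells and are found mainly on dendritic cells, macrophages and B cells, while resting muscle fibers are known for little or no MHC at their surface. H2-AA and H2-AB1 encode the chains of the I-A molecule, H2-EB1 the beta chain of I-E, and CD74 the invariant chain that guards the class II groove until a peptide is loaded. Interferon-gamma is the best known inducer of both classes.

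Of the 10 genes, 7 lie within the H2 region of chromosome 17 (build GRCm38), with H2-K1 at chr17:33996012-34000619, H2-AB1 at chr17:34263227-34269418, H2-D1 at chr17:35263094-35267497 and H2-T23 at chr17:36029977-36032701. B2M is on chromosome 2 (chr2:122147687-122153082).

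RefSeq windows before the start were held here for 7 of the 10 genes, H2-K1, H2-D1, H2-T23, B2M, H2-AA, H2-EB1 and TAP1. The 200 bases before the start follow for 6 of them, since H2-T23 is the tested member that no comparison called and the other 5 hold the MHC promoter boxes, in lower case and 5′ to 3′ on the strand of the gene (build GRCm38.p6, the C57BL/6 reference). Capitals mark matches to GGGANTNCC, a form of the NF-kappa-B motif, to GAANNGAAA, a form of the interferon response element, and to the pair of TGANG and ATTGG, which resemble the X2 and Y boxes of MHC promoters. GGGANTNCC, GAANNGAAA and ATTGG were sought on both strands, TGANG on the strand of the gene, and the pair counted when 12 to 30 bases lay between its parts. Adjacent or overlapping matches merge into a single run of capitals. H2-K1 has a pair of annotated starts, and the one that lies inside the gene's span given above was used.
H2-K1, chr17:34000334-34000533, minus strand: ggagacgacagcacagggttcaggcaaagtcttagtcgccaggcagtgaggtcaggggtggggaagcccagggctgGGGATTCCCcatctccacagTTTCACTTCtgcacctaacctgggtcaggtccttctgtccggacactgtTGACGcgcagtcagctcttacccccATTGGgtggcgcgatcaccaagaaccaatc
H2-D1, chr17:35262894-35263093, plus strand: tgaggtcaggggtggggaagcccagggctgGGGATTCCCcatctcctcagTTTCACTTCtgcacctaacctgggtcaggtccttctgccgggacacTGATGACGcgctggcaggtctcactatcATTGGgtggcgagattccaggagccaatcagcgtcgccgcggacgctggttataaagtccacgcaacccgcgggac
B2M, chr2:122147487-122147686, plus strand: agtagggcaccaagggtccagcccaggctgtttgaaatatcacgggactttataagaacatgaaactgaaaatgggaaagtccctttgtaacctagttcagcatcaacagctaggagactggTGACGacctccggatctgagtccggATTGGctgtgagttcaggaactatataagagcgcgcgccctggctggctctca
H2-AA, chr17:34287824-34288023, minus strand: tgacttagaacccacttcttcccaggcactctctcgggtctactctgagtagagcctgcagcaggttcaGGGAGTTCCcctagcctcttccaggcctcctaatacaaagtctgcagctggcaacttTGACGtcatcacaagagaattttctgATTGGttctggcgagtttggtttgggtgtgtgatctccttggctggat
H2-EB1, chr17:34305667-34305866, plus strand: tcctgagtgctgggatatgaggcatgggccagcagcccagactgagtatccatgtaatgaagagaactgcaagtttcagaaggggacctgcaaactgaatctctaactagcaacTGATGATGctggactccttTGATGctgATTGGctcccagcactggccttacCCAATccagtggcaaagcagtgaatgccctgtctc
H2-T23, chr17:36032702-36032901, minus strand: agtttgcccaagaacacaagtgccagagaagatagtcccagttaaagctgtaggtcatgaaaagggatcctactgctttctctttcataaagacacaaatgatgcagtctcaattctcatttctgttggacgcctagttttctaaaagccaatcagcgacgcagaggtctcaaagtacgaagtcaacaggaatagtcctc
The TGANG and ATTGG pair was found before 5 of the 7 genes, H2-K1, H2-D1, B2M, H2-AA and H2-EB1, and in 3.82% of the 32851 windows of all genes, within the 250 bases before the start. With the stricter TGACG in place of TGANG it was found in 4 of the 7 and in 0.636% of all windows. H2-K1 and H2-D1 also held GGGANTNCC, present in 3.36% of all windows, and GAANNGAAA, present in 6.31%, while H2-AA held only the first of these. B2M and H2-EB1 held neither. Only these exact forms were sought, so other forms of the NF-kappa-B motif or the interferon response element may be present, in B2M as elsewhere. None of these letters in these arrangements was in the windows of H2-T23 and TAP1. Of these genes, TAP1 was called lower in EAE-induced than in unimmunized mice on day 14, and H2-T23 was not. The motifs were chosen after the sequences had been seen, so these shares are a description, and SJL/J mice carry another H2 haplotype than the reference, whose sequence can differ.

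Levels are given as RPKM, the reads on a gene's exons scaled by exon length and by library size. The reads per mouse that fell on genes, in units of 1 M reads, were 18.1 to 31.5 (median 21.6, estimated from the steps between low values). NLRC5 rested on the fewest reads, with an estimated 20 to 655 reads per mouse (median 111). A pair of libraries stood apart in these genes. Replicate 4 of the unimmunized mice on day 14 was the highest of the 30 mice in all 10 genes, with 422 RPKM of H2-K1 where the other 4 mice of its group had 71.0 to 189 RPKM. Its 15 interferon-gamma response genes summed to 864 RPKM against 63.8 to 182 RPKM in those 4 mice. Replicate 3 of the EAE-induced mice on day 14, also the deepest library, had 72.7 RPKM of H2-AA where the other 4 mice of its group had 23.0 to 30.8 RPKM. Its macrophage markers summed to 127 RPKM against 73.6 to 96.7 RPKM in those 4 mice. What part these differences had in the results was not tested, and the counts and orders that rest on these mice are also given without them.

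**Figure D1:**
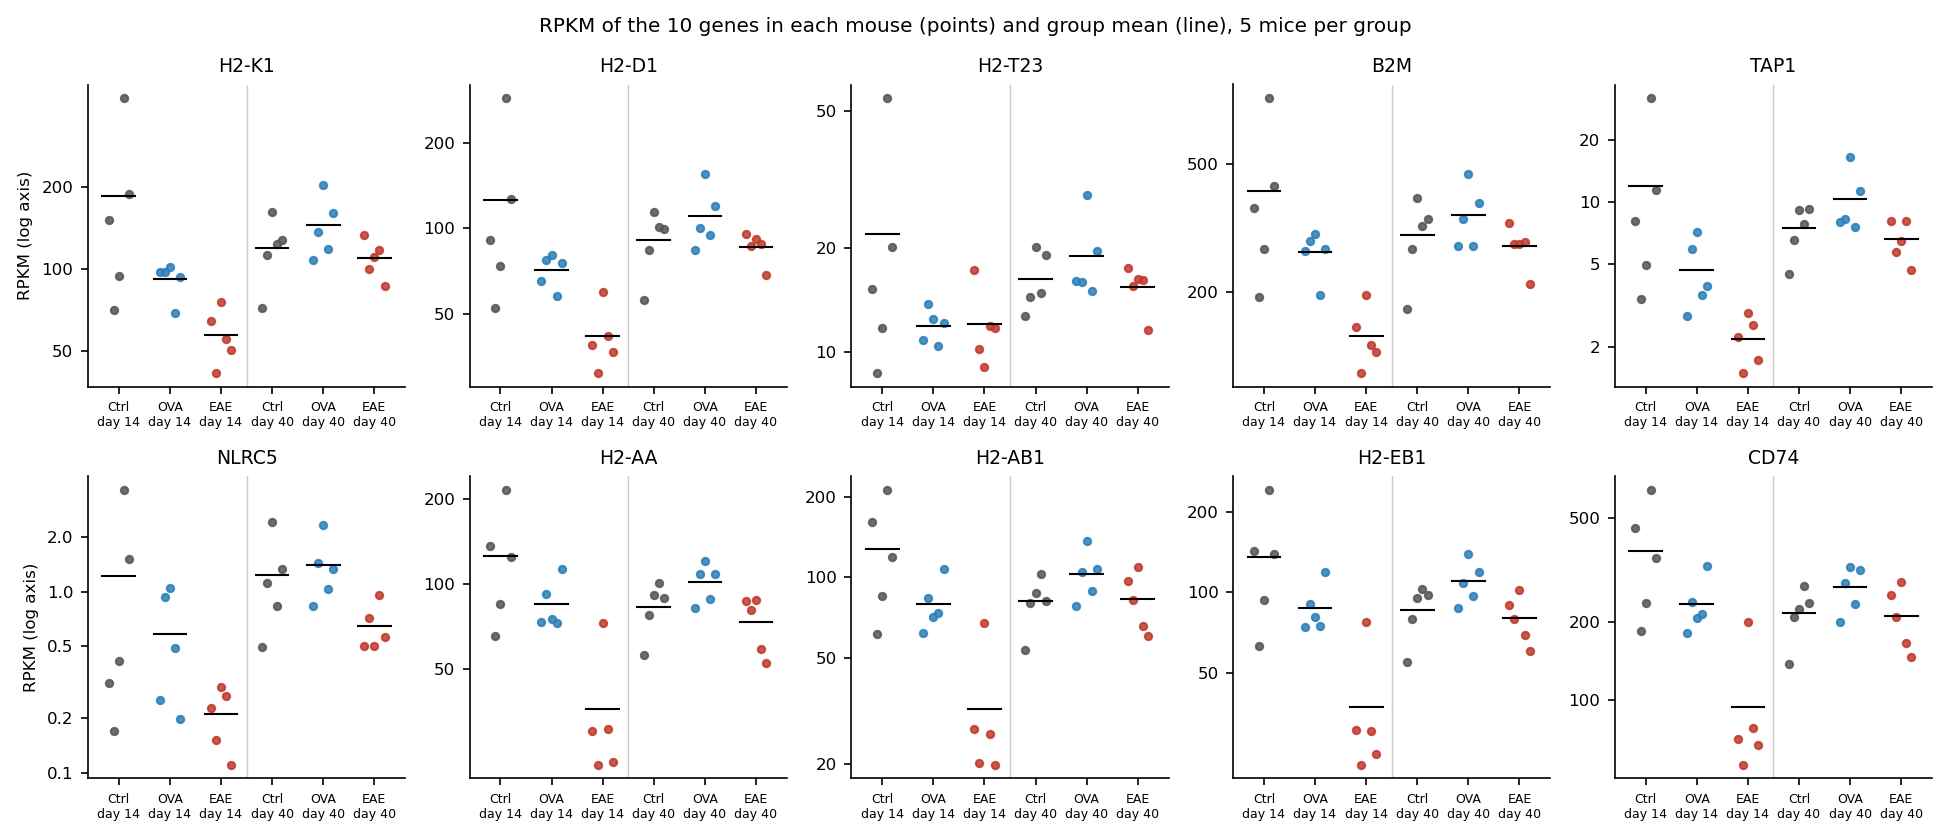
RPKM (log axis) of the 10 genes in each of the 30 mice, by group, with points for mice and a line for the mean of 5 mice. The EAE-induced mice on day 14 had the lowest mean in 9 of the 10 genes, and the exception was H2-T23.

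Across the 6 groups, the mean level was lowest in EAE-induced mice on day 14 for 9 of the 10 genes, and highest in unimmunized mice on day 14 for 9. OVA-immunized mice on day 40 came second for 9 of the 10 genes. Without replicate 4 of the unimmunized mice on day 14, OVA-immunized mice on day 40 had the highest mean for 7 genes and unimmunized mice on day 14 for 3, H2-AA, H2-AB1 and CD74, and the lowest means stayed with EAE-induced mice on day 14 for 9. The highest group mean exceeded the lowest by 1.84-fold for H2-T23, by 2.81-fold to 3.97-fold for the class I and class II chains, B2M and CD74, by 5.49-fold for TAP1 and by 6.61-fold for NLRC5. Neighbors in these orders could not be separated by range, since all 50 pairs of adjacent groups overlapped.

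The comparison of EAE-induced with unimmunized mice on day 14 asked what the peak of disease, adjuvant included, changed in muscle. The genes of both MHC classes were lower in EAE-induced mice, and the largest fitted changes were those of the class II genes and TAP1. Genes with a mean above 3 RPKM in a compared group were tested with limma on log2(RPKM + 0.1), and a gene was called at a Benjamini-Hochberg adjusted p below 0.05 over all tested genes with a fold change above 1.5. By this rule 8 of the 9 tested members were lower and 0 were higher, and the exception was H2-T23. Of all 8771 genes tested, 11.8% were called lower. The median log2 fold change was -1.82 over the 9 members and 0.11 over all tested genes. With whole muscle, fewer cells of a type and less RNA per cell cannot be told apart.

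Among the class I genes, H2-K1, a classical heavy chain, had 151, 71.0, 94.5, 422 and 189 RPKM in the unimmunized mice on day 14 and 64.5, 41.6, 75.5, 55.6 and 50.6 RPKM in the EAE-induced mice. All EAE-induced mice but replicate 3 lay below every unimmunized mouse. The means were 185 ± 140 and 57.6 ± 13.0 RPKM (± SD, n = 5 each), and the log2 fold change was -1.43 ± 0.34 (± SE, as for each fold change here) with a limma adjusted p of 0.00336. H2-D1, the other classical heavy chain, fell from 127 ± 94.3 to 41.6 ± 10.9 RPKM (± SD, n = 5 each), and the log2 fold change was -1.37 ± 0.33 with a limma adjusted p of 0.00312. B2M, the light chain that all class I molecules share, had 363, 193, 272, 798 and 426 RPKM in the unimmunized and 156, 112, 196, 137 and 130 RPKM in the EAE-induced mice. Only the lowest unimmunized mouse and the highest EAE-induced mouse crossed. Its log2 fold change was -1.35 ± 0.28 with a limma adjusted p of 0.00124.

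TAP1, a subunit of the peptide pump, had 8.08, 3.42, 4.99, 31.9 and 11.5 RPKM in the unimmunized and 2.22, 1.49, 2.92, 2.54 and 1.73 RPKM in the EAE-induced mice on day 14. It was the only tested member in which every EAE-induced mouse lay below every unimmunized mouse. This separation was seen in the lower direction for 11% of all tested genes. With a mean of 2.18 RPKM in EAE-induced mice, TAP1 passed the minimum only through the unimmunized mice. That favors a lower value in EAE-induced mice, and TAP1 is among the 8 members called. Its log2 fold change was -2.0 ± 0.44 with a limma adjusted p of 0.00194. H2-T23, the non-classical heavy chain, had 15.2, 8.69, 11.7, 54.3 and 20.2 RPKM in the unimmunized and 17.3, 10.2, 9.02, 11.9 and 11.7 RPKM in the EAE-induced mice. These groups overlapped over most of their range, and the log2 fold change of -0.59 ± 0.35 had a limma adjusted p of 0.171. Without both libraries that stand apart it was -0.09, with an adjusted p of 0.767, and without replicate 2 of the unimmunized mice alone it was -0.84, with an adjusted p of 0.0496. NLRC5, the class I activator at chr8:94434335-94527272, was at 0.313, 0.169, 0.416, 3.65 and 1.52 RPKM in the unimmunized and at 0.227, 0.151, 0.299, 0.266 and 0.111 RPKM in the EAE-induced mice. No group mean reached the minimum, so it was not tested. With no minimum, its log2 fold change was -1.42 ± 0.60 with a limma adjusted p of 0.0847.

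The class II genes had fitted log2 fold changes of -1.82 to -2.02. CD74, the invariant chain, lies outside the H2 region, at chr18:60803849-60812652. It had 457, 184, 235, 641 and 352 RPKM in the unimmunized mice on day 14 and 70.9, 56.5, 199, 78.0 and 67.2 RPKM in the EAE-induced mice. Of the EAE-induced mice 4 lay far below the unimmunized group, and replicate 3 lay within it. The means were 374 ± 183 and 94.2 ± 58.8 RPKM (± SD, n = 5 each), and the log2 fold change was -2.01 ± 0.34 with a limma adjusted p of 0.000276. H2-AA, the I-A alpha chain, had 136, 65.2, 85.2, 215 and 124 RPKM in the unimmunized and 30.1, 23.0, 72.7, 30.8 and 23.4 RPKM in the EAE-induced mice. The same EAE-induced mouse was the high one. Its log2 fold change was -1.82 ± 0.32 with a limma adjusted p of 0.000329. H2-AB1, the I-A beta chain, fell from 127 ± 60.2 to 32.1 ± 20.1 RPKM and H2-EB1, the I-E beta chain, from 136 ± 68.3 to 37.1 ± 22.8 RPKM (SD, n = 5 each). Their log2 fold changes were -2.02 ± 0.34 and -1.89 ± 0.34, with limma adjusted p of 0.000245 and 0.000412.

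Without replicate 3 of the EAE-induced mice, the remaining 4 lay below all 5 unimmunized mice in 8 of the 9 tested members and below all 5 OVA-immunized mice in the same 8. Of all tested genes, 14.9% separated in this way from unimmunized and 12.3% from OVA-immunized mice. The mouse left out was singled out by its levels of these same members, which favors their separation, so these counts are a description. Without both libraries that stand apart, the same number of members, 8, was called lower against unimmunized mice. The log2 fold changes then ranged from -2.11 for H2-AB1 to -1.15 for H2-D1 among those 8 genes.

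**Figure D2:**
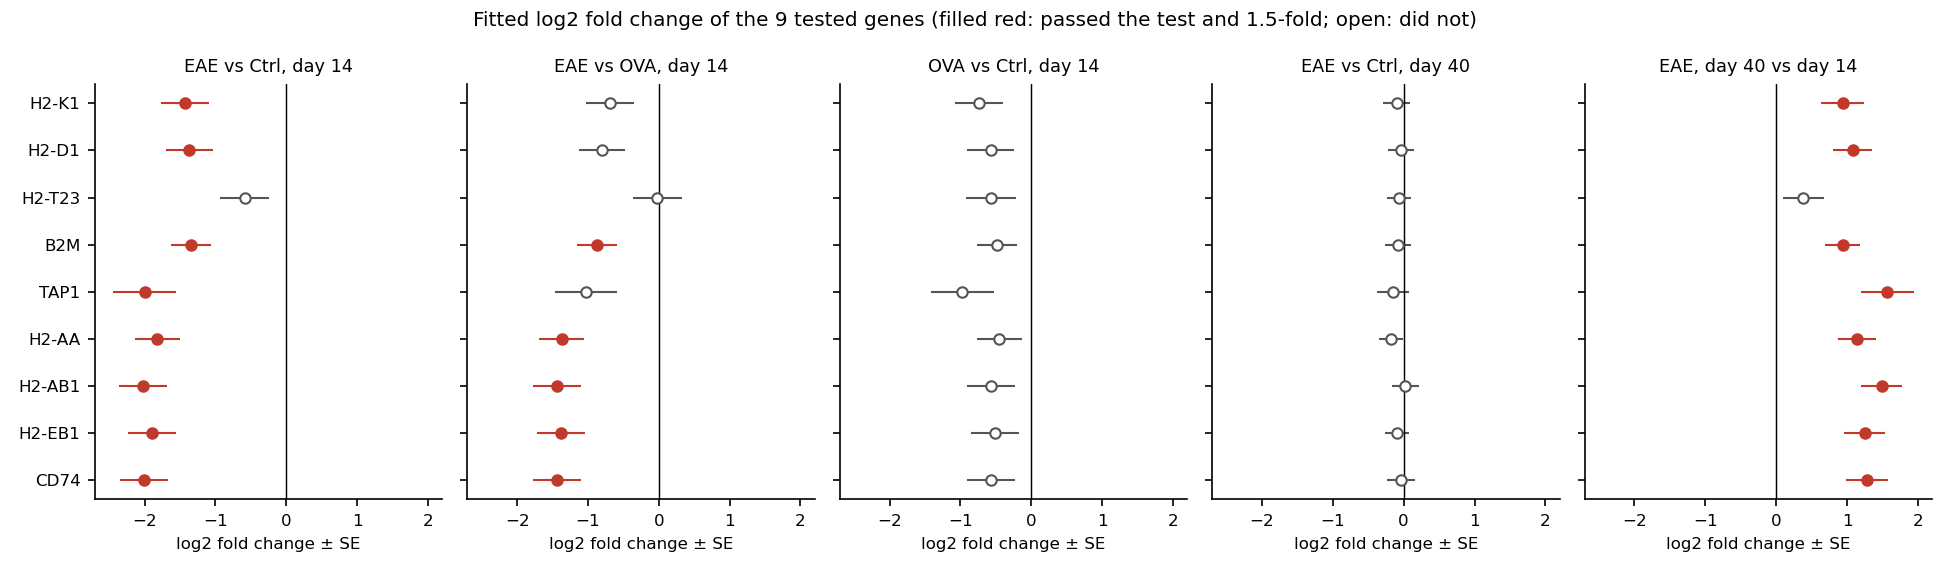
Fitted log2 fold change with its standard error for the 9 tested genes in 5 comparisons (5 mice per group). Filled red points passed an adjusted p of 0.05 and 1.5-fold, and open points did not. Red points stand on the left for EAE on day 14, are absent in the panels of OVA against Ctrl and of day 40, and stand on the right for the change from day 14 to day 40 in EAE-induced mice.

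The comparison with OVA-immunized mice, which received the same adjuvant, asked what EAE changed beyond an immunization. On day 14, 5 of the 9 tested members were lower in EAE-induced than in OVA-immunized mice, the 4 class II genes and B2M, where 9.28% of the 8674 tested genes were called lower. The median log2 fold change was -1.03 over the members and 0.11 over all tested genes. CD74 had 181, 238, 207, 214 and 326 RPKM in the OVA-immunized mice, so that 4 EAE-induced mice were below all of them and replicate 3, at 199 RPKM, was not. The log2 fold change of CD74 was -1.44 ± 0.34 with a limma adjusted p of 0.00386. The other class II genes were close to it, with log2 fold changes of -1.37 ± 0.32 for H2-AA, -1.44 ± 0.34 for H2-AB1 and -1.38 ± 0.34 for H2-EB1 and limma adjusted p from 0.00331 to 0.00482. B2M had 268, 288, 302, 196 and 272 RPKM in the OVA-immunized mice, and its log2 fold change was -0.87 ± 0.28 with a limma adjusted p of 0.0224. Without replicate 2 of the EAE-induced mice B2M was no longer called (-0.78, limma adjusted p = 0.061).

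The class I heavy chains and TAP1 did not pass against OVA-immunized mice. H2-K1 had 97.4, 97.9, 102, 69.0 and 93.3 RPKM there, and its log2 fold change was -0.69 ± 0.34 with a limma adjusted p of 0.123. H2-D1 was at -0.80 ± 0.33 (adjusted p = 0.0637) and TAP1 at -1.03 ± 0.44 (adjusted p = 0.0769). These 3 calls depended on the processing. H2-D1 passed after median-of-ratios scaling (-0.89, limma adjusted p = 0.0366) and quantile normalization (-0.92, limma adjusted p = 0.0439), and it also passed without replicate 3 of the EAE-induced mice (-0.94, limma adjusted p = 0.0416). With all 30 mice in a limma model, H2-D1 and TAP1 passed. In a limma fit of only the compared groups, all 3 passed and 8 of the 9 members were called lower. The count was also 8 without both libraries that stand apart. TAP1 passed the minimum here only through the OVA-immunized mice, which favors a lower value in EAE-induced mice. H2-T23 had 10.8, 13.8, 12.5, 10.4 and 12.1 RPKM in the OVA-immunized mice, and its log2 fold change was -0.02 ± 0.35 with a limma adjusted p of 0.972.

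Immunization with an antigen in adjuvant but without EAE was addressed on day 14 by the OVA-immunized against the unimmunized mice. None of the 9 tested members was called, and 0.142% of the 8471 tested genes were. All 9 log2 fold changes were negative, from -0.97 ± 0.44 for TAP1 to -0.45 ± 0.32 for H2-AA, with limma adjusted p of 0.503 or more. Without replicate 4 of the unimmunized and replicate 3 of the EAE-induced mice they were smaller, -0.50 for TAP1, -0.37 for H2-K1, -0.23 for H2-AA and -0.16 for H2-T23, and as single mice were left out TAP1 ranged from -1.30 to -0.50 and H2-T23 from -0.82 to -0.16. At an unadjusted p below 0.05, 821 of all genes tested were counted. CD74 spanned 181 to 326 RPKM in the OVA-immunized and 184 to 641 RPKM in the unimmunized mice.

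The rest of the pathway was described by lists of named genes, also compiled with earlier results of these data known. Between EAE-induced and unimmunized mice on day 14, 11.8% of all 8771 tested genes were called lower and 1282 of them higher. Of 12 tested other class I genes, 10 were lower in EAE-induced than in unimmunized mice on day 14, among them H2-Q7 (log2 fold change -2.14 ± 0.49), H2-M3, which presents formylated peptides (-1.47 ± 0.26), and H2-T24 (-1.01 ± 0.20). The exceptions were H2-T22 (-0.71 ± 0.29) and MR1, which presents vitamin metabolites to MAIT cells (0.53 ± 0.21). The list median was -1.21. Some of these class I genes, such as H2-Q1, passed the minimum only through the unimmunized mice, which favors a lower value in EAE-induced mice. Among 12 tested genes of peptide supply and class I loading, 8 were lower, 1 was higher and the median was -0.80. The immunoproteasome subunits PSMB8 (-1.65 ± 0.33), PSMB9 (-1.92 ± 0.38) and PSMB10 (-1.51 ± 0.30), the proteasome activator PSME1 (-1.64 ± 0.21), and TAP2 (-1.01 ± 0.25) and TAPBP (-0.86 ± 0.16) of the loading complex fell, with limma adjusted p from 2.4e-05 to 0.00372. The gene that rose was CANX, a general chaperone of the endoplasmic reticulum (0.74 ± 0.15). CALR, another such chaperone, had 0.18 ± 0.12 with a limma adjusted p of 0.231. Several H2-Q and H2-T genes are near copies of each other, so their reads may have been shared or lost.

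Of 6 tested genes of class II loading, 4 were lower, where 11.8% of all tested genes were, and the median was -1.47. H2-DMA, H2-DMB1 and H2-DMB2, which encode the chains of the class II peptide editor H2-DM, had log2 fold changes of -1.68 ± 0.32, -1.99 ± 0.29 and -1.76 ± 0.29, and CTSS, the protease cathepsin S that trims the invariant chain, had -1.26 ± 0.27. The limma adjusted p of these 4 ranged from 7.84e-05 to 0.00134. H2-DMB1 and H2-DMB2, at 1.66 and 2.68 RPKM in EAE-induced mice, passed the minimum only through the unimmunized mice. That favors a lower value in EAE-induced mice. IFI30, a lysosomal thiol reductase, had -0.55 ± 0.19 and LGMN, a lysosomal protease, -0.35 ± 0.15, and neither passed the threshold of 1.5-fold. The I-E alpha chain row, H2-EA-PS, whose symbol marks a pseudogene, never exceeded 0.735 RPKM.

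Among 8 tested regulators of MHC genes, 3 were lower, where 11.8% of all tested genes were, and the median was -0.41. IRF1, an interferon-induced activator of class I genes, had -1.44 ± 0.29, SOCS1, a feedback inhibitor of cytokine signals, -1.73 ± 0.25, and IRF8 -1.06 ± 0.29. SOCS1 passed the minimum only through the unimmunized mice, which favors a lower value in EAE-induced mice. CIITA, the class II transactivator, was below the minimum in each group, with 1.00 ± 0.767 RPKM in unimmunized and 0.433 ± 0.234 RPKM in EAE-induced mice on day 14 (SD, n = 5 each). RFX5 of the complex that binds the X box was also below it, at 1.76 ± 0.632 and 1.77 ± 0.473 RPKM (SD, n = 5 each). The Y box subunits NFYA and NFYC had log2 fold changes of -0.04 ± 0.15 and -0.03 ± 0.09 with limma adjusted p of 0.843 and 0.784. Of 12 tested interferon-gamma response genes, 10 were lower and 0 higher, with a list median of -1.83. The 10 included IGTP (-2.71 ± 0.63), IRGM2 (-2.50 ± 0.54) and GBP3 (-2.43 ± 0.45), guanosine triphosphatases of cell-autonomous defense. Some of the 12 passed the minimum only through the unimmunized mice, which favors a lower value in EAE-induced mice. Of 7 tested interferon ligands and receptors, the receptor chain IFNGR2 was lower (-0.91 ± 0.13), the kinase JAK1 was higher (0.70 ± 0.18) and the list median was -0.15. These counts were near the shares of all tested genes, of which 11.8% were called lower and 1282 of 8771 higher. IFNG itself was at 0 RPKM in all 5 EAE-induced and all 5 OVA-immunized mice on day 14, and at most 0.0909 RPKM in the unimmunized mice. Without both libraries that stand apart, 9 of 11 tested other class I genes, 6 of 12 genes of peptide supply and loading, 4 of 6 genes of class II loading, 3 of 7 regulators and 6 of 9 interferon-gamma response genes were lower than in unimmunized mice, where 12% of all tested genes were called lower. In some lists fewer genes were then tested, since some passed the minimum only with these libraries included. The medians of these lists were then -1.02, -0.67, -1.53, -0.30 and -1.35, in the order of the counts. The log2 fold changes of IGTP, IRGM2 and GBP3 were -2.05, -1.98 and -2.08.

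**Figure D3:**
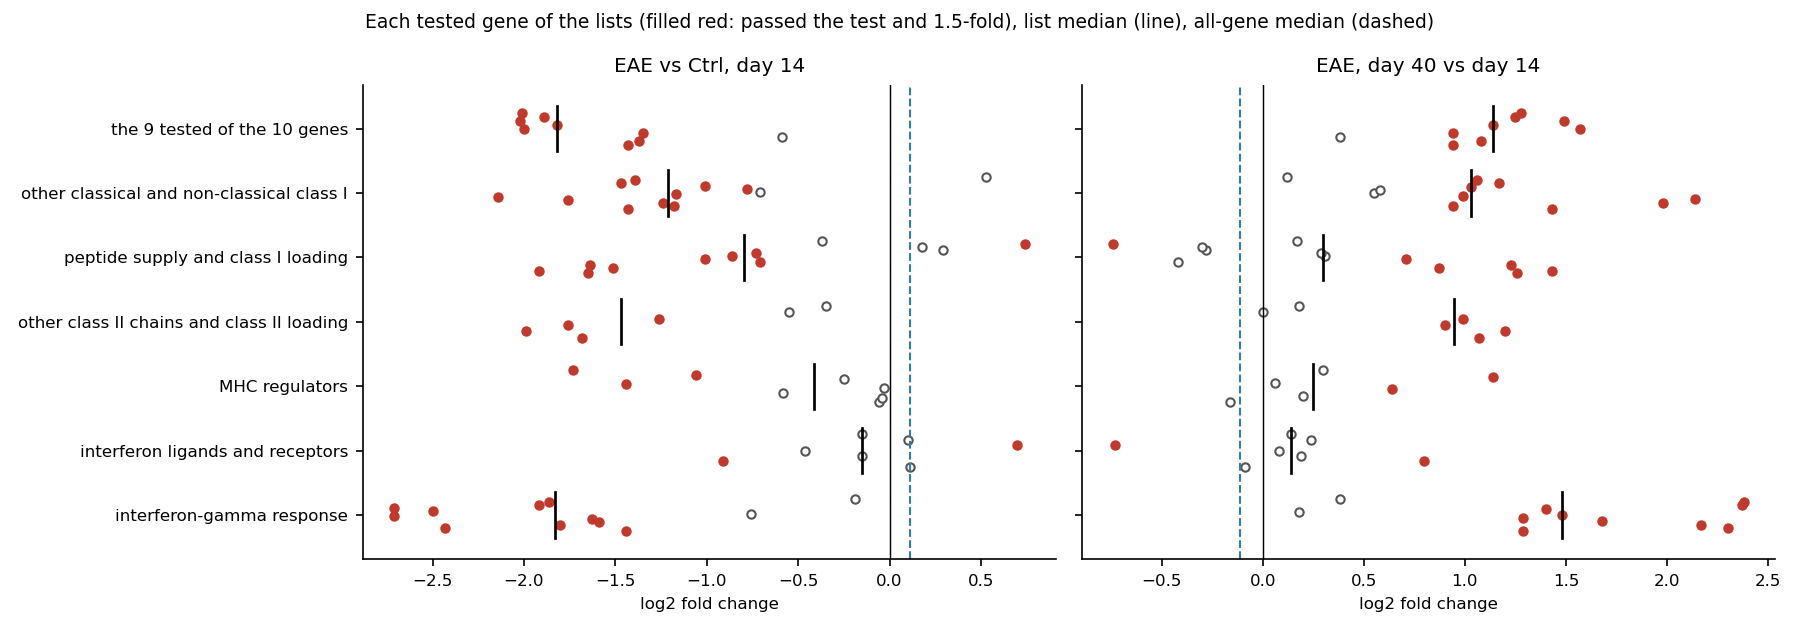
Log2 fold change of every tested gene of the members and the 6 pathway lists, for EAE against Ctrl on day 14 (left) and for day 40 against day 14 in EAE-induced mice (right). Filled red points were called, short lines are list medians and the dashed line is the median of all tested genes. The list medians lie left of the dashed line on day 14 and right of it in the change to day 40.

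Against OVA-immunized mice on day 14, the same lists gave 2 of 11 other class I genes, 4 of 12 genes of peptide supply and loading, 4 of 6 genes of class II loading, 1 of 6 regulators and 2 of 9 interferon-gamma response genes called lower, where 9.28% of all tested genes were. The share of the regulators rests on a single gene, IRF1. Without both libraries that stand apart the counts were 8 of 11, 5 of 12, 4 of 6, 2 of 6 and 7 of 9, where 10.4% of all tested genes were called lower. CANX was again higher, with a log2 fold change of 0.60, where 957 of the 8674 tested genes were called higher. The list medians were -0.63, -0.41, -1.19, -0.15 and -1.15. The 4 genes of class II loading were H2-DMA, H2-DMB1, H2-DMB2 and CTSS in both comparisons. Here H2-DMB1 and H2-DMB2 passed the minimum only through the OVA-immunized mice, which favors a lower value in EAE-induced mice.

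Markers of cells that could carry MHC molecules were counted beside these genes on day 14. Against unimmunized mice 11.8% of all tested genes were called lower and 1282 of 8771 higher. Against OVA-immunized mice 9.28% were called lower and 957 of 8674 higher. The 12 macrophage markers summed to 135 to 206 RPKM in unimmunized, 112 to 183 RPKM in OVA-immunized and 73.6 to 127 RPKM in EAE-induced mice, and 4 of the 10 tested were lower against unimmunized and 6 of 10 against OVA-immunized mice. The 9 dendritic cell markers summed to 14.8 to 24.6 RPKM, 11.7 to 19.4 RPKM and 6.68 to 11.8 RPKM in the same order, and the only tested pair, CD209A and CLEC10A, was lower in both comparisons. FLT3, which defines dendritic cells, was at 0.403 ± 0.0807 RPKM in unimmunized and 0.176 ± 0.0880 RPKM in EAE-induced mice (SD, n = 5 each). B cell markers were near 0 everywhere, with 6 genes summing to 0.255 to 2.89 RPKM over all 30 mice, and PAX5 was at 0 in at least 15 mice. T and NK cell markers, 10 genes, summed to 3.78 to 12.3 RPKM in unimmunized and 1.52 to 4.85 RPKM in EAE-induced mice. Endothelial markers were lower for 5 of 12 genes and summed to 236 to 301 RPKM in unimmunized and 179 to 244 RPKM in EAE-induced mice. Fibro-adipogenic markers, such as COL1A1, were lower for 9 of 10 genes, with sums of 1170 to 1630 RPKM in unimmunized and 383 to 620 RPKM in EAE-induced mice. Of 10 neutrophil markers 5 were tested, and all 5 were higher than in unimmunized and 1 of 5 than in OVA-immunized mice. Some of the 5 passed the minimum against unimmunized mice only through the EAE-induced mice, which favors a higher value there. The 10 markers summed to 5.04 to 11.7 RPKM in unimmunized, 70.3 to 239 RPKM in OVA-immunized and 219 to 405 RPKM in EAE-induced mice. The 4 tested erythroid markers were lower in both comparisons, and muscle fiber markers summed to 92900 to 123000 RPKM in unimmunized and 69300 to 83400 RPKM in EAE-induced mice. The part of each cell type in the levels of the MHC genes was not tested.

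**Figure D4:**
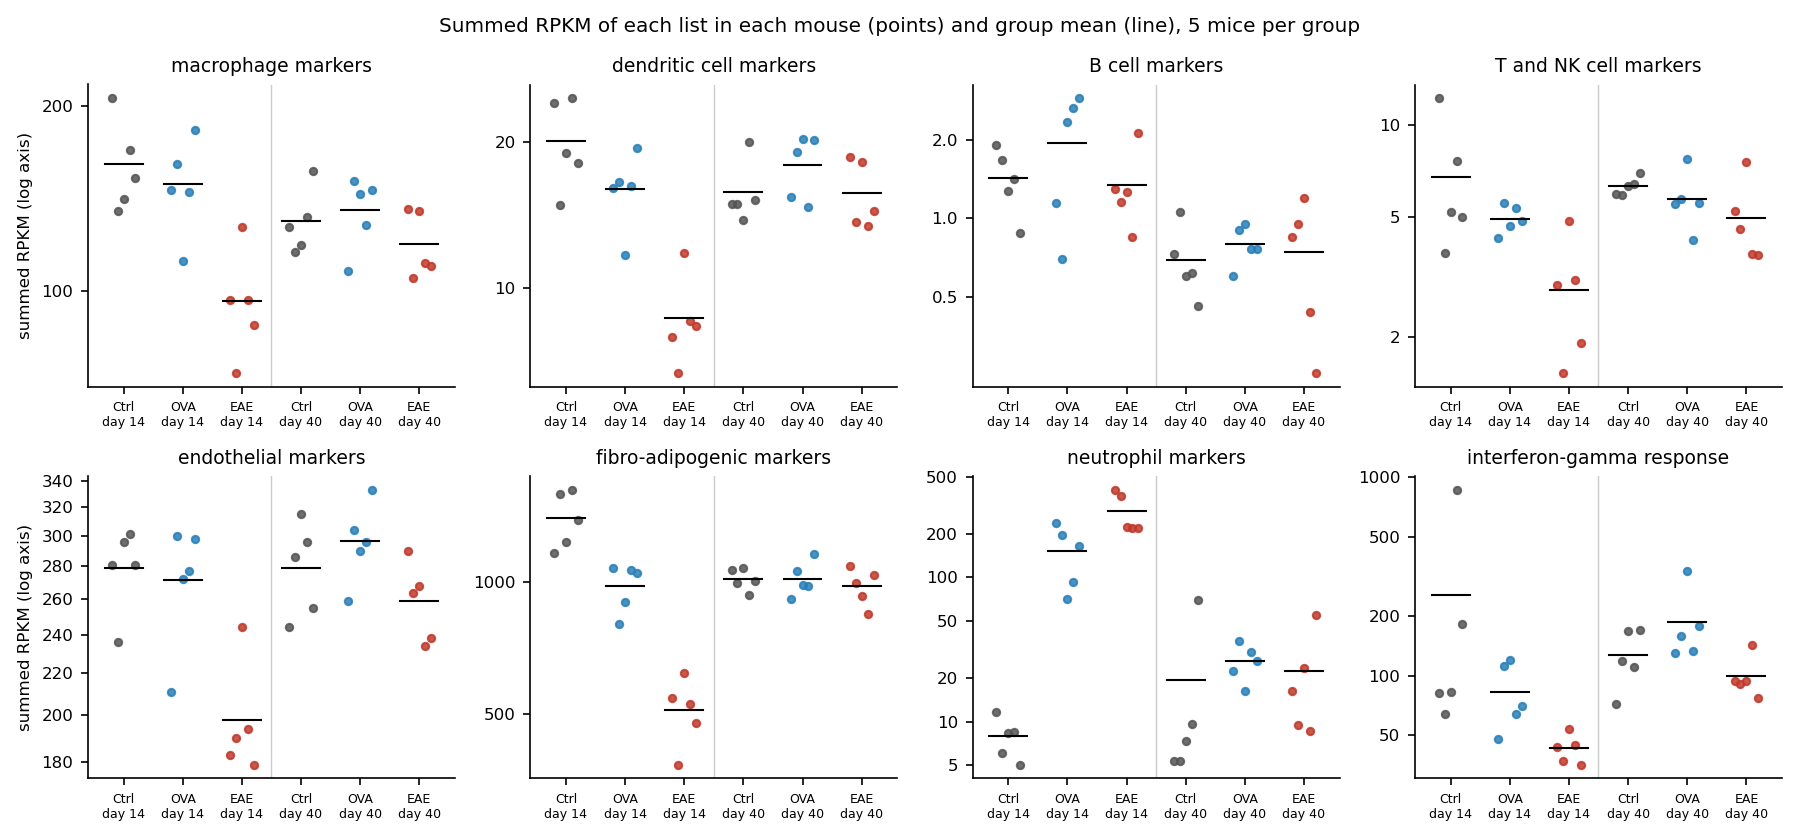
Summed RPKM (log axis) of 7 marker lists and of the interferon-gamma response list in each of the 30 mice, by group, with points for mice and a line for the mean of 5 mice. Macrophage, dendritic cell, endothelial and fibro-adipogenic sums were lowest in the EAE-induced mice on day 14, and neutrophil sums were highest there.

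On day 40, in remission, none of the 9 tested members was called between any groups. Between EAE-induced and unimmunized mice 0.46% of the 8691 tested genes were called, and the members' log2 fold changes lay between -0.18 ± 0.17 for H2-AA and 0.02 ± 0.19 for H2-AB1, with limma adjusted p of 0.476 or more. CD74 had 138, 208, 224, 274 and 235 RPKM in the unimmunized and 252, 208, 283, 165 and 146 RPKM in the EAE-induced mice. H2-K1 had 72.1, 113, 162, 124 and 128 RPKM in the unimmunized and 133, 99.7, 111, 117 and 86.4 RPKM in the EAE-induced mice. The groups overlapped for both genes, and the EAE-induced mice lay within the range of the unimmunized mice for H2-K1.

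Between EAE-induced and OVA-immunized mice on day 40, 0.209% of the 8598 tested genes were called. All 9 members had negative log2 fold changes, from -0.60 ± 0.23 for TAP1 to -0.28 ± 0.17 for H2-T23, and limma adjusted p ranged from 0.169 to 0.397. For OVA-immunized against unimmunized mice on that day, 0% of the 8706 tested genes were called by limma. The members' log2 fold changes were 0.21 to 0.45 with limma adjusted p of 0.999. NLRC5 had 0.497, 1.11, 2.42, 0.828 and 1.33 RPKM in the unimmunized, 0.830, 1.43, 2.34, 1.04 and 1.34 RPKM in the OVA-immunized and 0.499, 0.717, 0.501, 0.963 and 0.559 RPKM in the EAE-induced mice on day 40. Its values overlapped among these groups, and with no minimum on the level its log2 fold change between EAE-induced and OVA-immunized mice was -0.96 ± 0.33 with a limma adjusted p of 0.228.

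From day 14 to day 40, the genes were compared between different mice of a group. In EAE-induced mice, 8 of the 9 tested members were higher on day 40, where 8.36% of the 8709 tested genes were called higher. The median log2 fold change was 1.14 over the members and -0.11 over all tested genes. H2-K1, H2-D1, B2M and TAP1 were higher in every mouse on day 40 than in any on day 14, a separation that 10.2% of all tested genes showed in this direction. NLRC5, which was not tested, also separated, with 0.111 to 0.299 RPKM on day 14 and 0.499 to 0.963 RPKM on day 40. TAP1 had 2.22, 1.49, 2.92, 2.54 and 1.73 RPKM on day 14 and 8.14, 5.77, 6.5, 8.10 and 4.69 RPKM on day 40. Its log2 fold change was 1.57 ± 0.37 with a limma adjusted p of 0.00106. It passed the minimum only through day 40, which favors a higher value there. H2-AB1, the I-A beta chain, had 27.1, 20.2, 67.6, 26.0 and 19.9 RPKM on day 14 and 96.5, 81.9, 109, 65.4 and 60.3 RPKM on day 40. Replicate 3 of day 14 was the only mouse that crossed into the range of day 40, and the log2 fold change was 1.49 ± 0.29 with a limma adjusted p of 0.000125. The other called members rose by log2 fold changes of 0.94 ± 0.30 (H2-K1) to 1.28 ± 0.30 (CD74), with limma adjusted p from 0.000698 to 0.0101. H2-T23 had 0.38 ± 0.29 with a limma adjusted p of 0.286.

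Genes of the other pathway lists were called in both directions between the days in EAE-induced mice, where 8.36% of all tested genes were called higher. Of the tested genes, 8 of 11 other class I genes and 5 of 12 genes of peptide supply and loading were higher on day 40. So were 4 of 6 genes of class II loading and 9 of 11 interferon-gamma response genes. Some genes of these lists, such as H2-Q1, H2-DMB1 and H2-DMB2, passed the minimum only through day 40, which favors a higher value there. CANX, which had been higher on day 14, was lower on day 40 (log2 fold change -0.74). Of 6 regulators, 2 were higher, IRF1 (1.14) and NFYB (0.64), a Y box subunit. Of 7 interferon ligands and receptors, IFNGR2 was higher (0.80) and JAK1 lower (-0.73). In the same comparison 2 of 10 tested macrophage markers, 2 of 2 dendritic cell markers and 7 of 10 fibro-adipogenic markers were higher. All 5 tested neutrophil markers were lower, where 1106 of the 8709 tested genes were called lower. Some of these 5 passed the minimum only through day 14, which favors a lower value on day 40.

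In unimmunized mice, none of the 9 tested members was called between the days, while 9.37% of the 8788 tested genes were called in either direction. Their log2 fold changes ranged from -0.68 ± 0.30 for CD74 (limma adjusted p = 0.0743) to -0.14 ± 0.29 for H2-T23. Without replicate 2 of the unimmunized mice on day 14, which had the lowest level of all 10 genes in its group, H2-AB1, H2-EB1 and CD74 were called lower on day 40, with log2 fold changes of -0.78, -0.80 and -0.91. Harvest day and any difference between the collections cannot be told apart. In OVA-immunized mice, none of the 9 was called and 3.97% of the 8648 tested genes were. H2-K1, H2-D1, H2-T23 and TAP1 were nevertheless higher in every mouse on day 40 than in any on day 14, which 7.02% of all tested genes were. TAP1 had 2.81, 5.92, 7.21, 3.57 and 3.95 RPKM on day 14 and 8.01, 8.27, 16.5, 7.63 and 11.4 RPKM on day 40, a log2 fold change of 1.14 ± 0.37 with a limma adjusted p of 0.0512. It passed without replicate 2 (1.25, adjusted p = 0.0397) or replicate 3 (1.32, adjusted p = 0.0318) of day 14, and all 4 genes passed when only the compared groups were fitted. H2-T23 had 10.4 to 13.8 RPKM on day 14 and 15.0 to 28.4 RPKM on day 40, and its log2 fold change was 0.63 ± 0.29 with a limma adjusted p of 0.17. The class II genes had smaller log2 fold changes, from 0.22 ± 0.30 for CD74 to 0.37 ± 0.29 for H2-AB1, and overlapped between the days.

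Whether the effect of EAE differed between the days was tested by an interaction term, called at an adjusted p below 0.05 with no threshold on the fold. The log2 fold change of EAE-induced against unimmunized mice rose from day 14 to day 40 for 8 of the 9 tested members, where 16.5% of the 9013 tested genes were called higher. The gap thereby narrowed, as from -2.02 to 0.02 for H2-AB1 and from -1.43 to -0.10 for H2-K1. The changes in the log2 fold change were 2.04 ± 0.41 for H2-AB1, 1.97 ± 0.42 for CD74, 1.84 ± 0.53 for TAP1, 1.80 ± 0.40 for H2-EB1 and 1.64 ± 0.38 for H2-AA. They were 1.33 ± 0.42 for H2-K1, 1.33 ± 0.39 for H2-D1 and 1.27 ± 0.36 for B2M, and the limma adjusted p of these 8 ranged from 0.000279 to 0.0107. H2-T23 had 0.52 ± 0.41 with a limma adjusted p of 0.299. Measured against OVA-immunized mice, 2 of the 9 were called, H2-AB1 (1.12 ± 0.41, limma adjusted p = 0.0355) and CD74 (1.06 ± 0.42, limma adjusted p = 0.0483), where 11.1% of the 8935 tested genes were called higher. From 0 to 4 members were called as single mice were left out, with 4 without replicate 3 of the EAE-induced mice on day 14. For OVA-immunized against unimmunized mice, 0% of the 8848 tested genes were called, the members had changes of 0.71 to 1.41 with limma adjusted p of 0.421 or more, and 823 of all genes had an unadjusted p below 0.05. Median-of-ratios scaling moved the median of all tested genes in the EAE comparisons toward 0, from 0.11 to 0.01 against unimmunized mice on day 14, where calls over all genes went from 1282 higher and 1036 lower to 938 higher and 1286 lower. It left 8 members lower there and 8 higher between the days.

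Ratios of genes within a mouse were compared, for genes of the same class and between classes. H2-EB1 was 0.967 to 1.18 times the RPKM of H2-AA over the 30 mice, H2-AB1 0.837 to 1.25 times and CD74 2.36 to 3.37 times. B2M was 1.89 to 2.96 times H2-K1, and H2-D1 0.603 to 0.869 times. Between the classes the proportion varied more, with CD74 at 1.10 to 3.5 times H2-K1. The ratio of H2-T23 to H2-K1 was 0.119 to 0.269 in EAE-induced mice on day 14 and 0.10 to 0.129 in unimmunized mice, and that of TAP1 to H2-K1 was 0.0341 to 0.0457 and 0.0482 to 0.0755. For 8 such ratios, EAE-induced mice on day 14 were compared with the other groups of that day by two-sided exact permutation tests on the log2 ratio, 16 tests in all, in which the smallest p that 5 against 5 mice allow is 0.00794. TAP1 to H2-K1 was lower than in unimmunized mice (a log2 difference of -0.62, SD 0.17 and 0.25, n = 5 each, adjusted exact p = 0.0423), with every EAE-induced mouse below every unimmunized mouse. H2-AB1 to H2-AA was lower than in unimmunized mice (-0.20) and B2M to H2-K1 lower than in OVA-immunized mice (-0.18), with the same adjusted exact p of 0.0423. None of these passed against the other group of day 14. Against OVA-immunized mice TAP1 to H2-K1 differed by -0.37 and H2-AB1 to H2-AA by -0.08 (both adjusted exact p = 0.254). B2M to H2-K1 differed by 0.08 from unimmunized mice (adjusted exact p = 0.567). Its mean was 2.88 in OVA-immunized mice on day 14 and 2.4 to 2.55 in the other groups. H2-T23 to H2-K1 differed by 0.84 from unimmunized mice, with an exact p of 0.0317 and an adjusted exact p of 0.0907. Each of the 3 called ratios lost its call without any of several single mice, with adjusted exact p of 0.0635 to 0.0847, and the ratio of H2-T23 to H2-K1 passed without replicate 3 of the EAE-induced mice (1.04, adjusted exact p = 0.0317). The ratios were chosen after the levels had been seen.

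**Figure D5:**
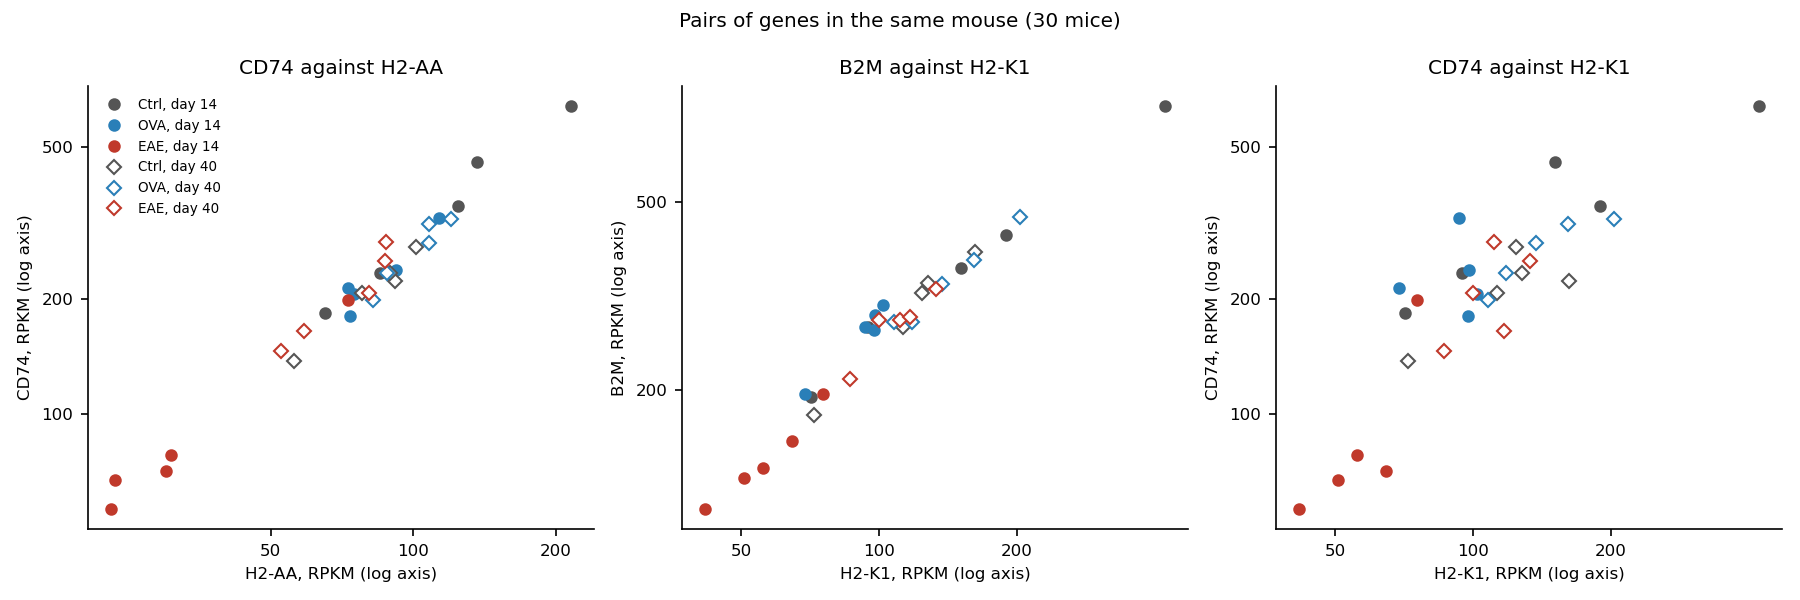
Each point is a mouse, placed by its RPKM of a pair of genes (log axes), with filled circles for day 14 and open diamonds for day 40. CD74 follows H2-AA and B2M follows H2-K1 in a narrow band through all 30 mice, and the band of CD74 against H2-K1 is wider. Of the EAE-induced mice on day 14, 4 lie at the low end in each panel.

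Over the 30 mice, Pearson's r of log2(RPKM + 0.1) with H2-K1 was 0.98 for H2-D1 and for B2M, 0.96 for TAP1 and between 0.84 and 0.89 for the other members. With CD74 it was 0.99 for H2-AA, H2-AB1 and H2-EB1, 0.91 for B2M, 0.55 for H2-T23 and 0.62 for NLRC5. Among 9049 genes with a mean above 3 RPKM in any group, the 5 other genes most like H2-K1 were PSMB8 (0.965), PSMB9 (0.959), TAP2 (0.957), H2-Q1 (0.952) and H2-Q10 (0.952). The 5 most like CD74 were NAAA (0.965), a lysosomal amidase, H2-DMB2 (0.960), H2-DMA (0.956), H2-DMB1 (0.951) and PLD4 (0.949), a phospholipase family member of myeloid cells. The points share groups and libraries, and the H2-Q genes may share reads with H2-K1, so these values are a description.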

How the data were processed

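EDL muscle poly(A) RNA of 30 mice, 5 in each of 6 groups by treatment and day, was sequenced as directional paired-end libraries. The authors aligned the reads to mm10 with Subread, counted them with featureCounts and deposited log2 values of RPKM + 1 (log base 2) with 0.0001 for a gene without a read. The scale was read from the values: taken as log2(RPKM + 1), 79.5% of 867 low values were whole multiples of the step of 1 read (tolerance 0.1), against 27.9% taken as RPKM. The design assumed plain RPKM, so the values were converted back. No strand setting was given. Reads of an H2s haplotype against a C57BL/6 reference may be lost or shared between near-identical H2 genes.

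Genes above 3 RPKM in a compared group were tested with limma 3.58.1 (trended variance) in R 4.3.3 after adding 0.1 RPKM and taking log2. Each day's 15 mice shared a model, comparisons between days used all 30 mice, and no batch term was used, since no batch was labeled. The fit was checked on simulated data. Alternatives were the pseudocount, the minimum, scaling, the mice in the model, the fold threshold, the trend, a replicate block and leaving out each mouse. Leaving out both libraries that stand apart was added after the data were seen. Ratios were compared by exact permutation. Promoter windows came from RefSeq GRCm38.p6. Described by name were the 10 genes, all genes of the compiled lists and the 5 genes most like each of H2-K1 and CD74. The genes and lists were chosen with earlier results of these data known. MARCH1 was matched by its Entrez identifier, and H2-L and HBB-BT were not analysed here. A gene of the regulator list is not reported here and was left out of its counts. The 60 pairs of mice within groups held no identical libraries. Whether replicates came from separate cages or litters was not given.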

Additional observations from a re-analysis of the deposited data

Results flagged for a closer look

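Of 60 combinations of gene and group checked for a mouse far from the other 4 (Dixon's test on log2(RPKM + 0.1), critical value 0.71), 6 held such a mouse, and chance gives about 1 in 20. Replicate 3 of the EAE-induced mice on day 14 was far above its group in H2-AA (72.7 RPKM), H2-AB1 (67.6 RPKM), H2-EB1 (77.5 RPKM) and CD74 (199 RPKM), genes that share their mice and each other's variation. Its T and NK cell markers summed to 4.85 RPKM against 1.52 to 3.08 RPKM in the other 4 mice, its endothelial markers to 244 against 179 to 194 RPKM, and its neutrophil markers to 225 against 219 to 405 RPKM. The part of these in its class II levels was not tested. Replicate 4 of the OVA-immunized mice on day 14 was far below its group in H2-K1 (69.0 RPKM) and B2M (196 RPKM). Replicate 4 of the unimmunized mice on day 14, at 422 RPKM of H2-K1, did not meet this criterion, since its group was wide throughout.

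The effect of EAE against unimmunized mice differed between day 40 and day 14 for H2-K1 (1.33), H2-D1 (1.33), H2-AA (1.64), H2-AB1 (2.04), H2-EB1 (1.80), CD74 (1.97), B2M (1.27) and TAP1 (1.84), each as a change in the log2 fold change from day 14 to day 40 by limma's interaction term. Against OVA-immunized mice it differed for H2-AB1 (1.12) and CD74 (1.06).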

How the results depend on the processing

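The count of 8 members lower in EAE-induced than in unimmunized mice on day 14 held under each alternative of pseudocount, minimum, scaling, mice in the model, fold threshold, trend and replicate block, and was 8 to 9 as single mice were left out. Without replicate 2 of the unimmunized mice H2-T23 was called too (-0.84, adjusted p = 0.0496). The 8 members higher on day 40 than on day 14 in EAE-induced mice, and the 8 whose effect of EAE against unimmunized mice changed between days, were 8 to 8 as mice were left out. Against OVA-immunized mice on day 14, 5 became 8 with only the compared groups and 8 without both libraries that stand apart, and 4 to 6 as mice were left out, with B2M lost without replicate 2 of the EAE-induced mice. The interaction with OVA-immunized mice, 2 members, became 1 with a minimum of 1 RPKM, 0 with no minimum, 4 with median-of-ratios scaling, 1 with quantile normalization, 1 without the trend, 4 without both libraries that stand apart and 0 to 4 as mice were left out (0 without OVA replicate 5 or EAE replicate 2, 4 or 5 of day 14, or OVA replicate 1 or 4 or EAE replicate 1 or 3 of day 40). For OVA-immunized mice between days, 0 became 1 (TAP1) with a minimum of 1 RPKM, 4 with only the compared groups and 0 to 1 as mice were left out (1 without replicate 2 or 3 of day 14). For unimmunized mice between days it was 0 to 3 (3 without replicate 2 of day 14). The counts for OVA against Ctrl and for day 40 stayed at 0 to 0.

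Replicate numbers did not pair the mice: correlations of same-numbered mice ran from -0.73 to 0.70, and at most 1 of 5 mice correlated best with its own number. With a replicate block the count for OVA-immunized mice between days was 1, and no other count of members changed by over 1.5 times.

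Small log2 fold changes that were not called turned sign. H2-T23, EAE against OVA on day 14, was 0.07 without both libraries that stand apart and -0.16 to 0.07 without single mice. For EAE against Ctrl on day 40, the ranges without single mice were -0.27 to 0.02 (H2-K1), -0.21 to 0.05 (H2-D1), -0.15 to 0.03 (H2-T23), -0.12 to 0.13 (H2-AB1), -0.24 to 0.01 (H2-EB1), -0.19 to 0.08 (CD74) and -0.25 to 0.03 (B2M), and H2-AB1 was -0.04 with quantile normalization. For unimmunized mice between days they were -0.50 to 0.11 (H2-D1), -0.39 to 0.26 (H2-T23) and -0.60 to 0.19 (TAP1), with the positive values 0.11, 0.26 and 0.19 also found without both libraries that stand apart. The log2 ratio of B2M to H2-K1 against unimmunized mice was -0.01 to 0.15 without single mice and -0.01 without both libraries, and that of H2-EB1 to H2-AA against OVA-immunized mice -0.03 to 0.00. The called ratios lost their call without some single mice. The cause of these moves was not tested.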

Other observations

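These values were singled out after they were seen. H2-EA-PS, the row of the I-E alpha chain, was read in 14 of the 15 mice on day 14, at up to 0.735 RPKM, and was at 0 RPKM in all 15 mice on day 40. SOCS1, the feedback inhibitor of interferon signaling, was at 3.79 ± 1.38 RPKM in unimmunized mice on day 14 and at 0.901 ± 0.309 RPKM on day 40 (SD, n = 5 each), and its log2 fold change was -1.95 with an SE of 0.27 and a limma adjusted p of 3.5e-05. In EAE-induced mice it was at 1.06 ± 0.354 and 1.20 ± 0.543 RPKM (SD, n = 5 each), below the minimum for a test. PSME1, a proteasome activator, had 110 to 213 RPKM in unimmunized, 100 to 162 RPKM in OVA-immunized and 34.1 to 64.6 RPKM in EAE-induced mice on day 14, with limma log2 fold changes of -1.64 ± 0.21 (adjusted p = 2.4e-05) and -1.36 ± 0.21 (adjusted p = 0.000139) for EAE against Ctrl and OVA. On day 40 its means were 112 ± 14.5, 122 ± 9.89 and 115 ± 21.4 RPKM in the same order of groups (SD, n = 5 each).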
